A study of Mus musculus with 4 samples.

Results

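The replication-dependent histone genes supply the core histones H2A, H2B, H3 and H4 and the linker histone H1 during DNA replication. Their members were taken by symbol: all genes of the mouse annotation GENCODE vM1 whose symbol starts with Hist1, Hist2, Hist3 or Hist4, which gave 70 of 37273 genes, 67 of them protein-coding and 3 of them pseudogenes (Hist1h2aj, Hist2h3c2 and Hist3h2bb-ps). By class they comprised 6 H1, 20 H2A, 19 H2B, 12 H3 and 13 H4 genes. The Hist1 symbols held 56 genes on chromosome 13, the Hist2 symbols 10 genes on chromosome 3, the Hist3 symbols 3 genes on chromosome 11, and Hist4h4 lay alone on chromosome 6.

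The data are chromatin immunoprecipitation sequencing (ChIP-seq) of NS-5 cells, a line of mouse neural stem cells (NSCs) that was left untreated and grown with EGF and FGF2, with an antibody against Med1, Carm1 or Jmjd1c or with rabbit IgG as control. No genotype, strain or mutation is named in the labels, and all groups are the same cells. Each antibody has 1 sample, 4 in all, so values carry no replicate error and samples could not be tested against each other, and the intervals given are 95% Wilson intervals that cover the counting of genes or sites only. The lists name 19956 Med1, 8759 Carm1 and 8078 Jmjd1c sites by start and end, with no height, so a site is either present or not, and the read depth behind it is unknown. Among markers of cell types, a Med1 site lay within 1 kb of the transcription start site (TSS) at 8 of 10 NSC markers, among them Sox2, Nes and Vim, but not Pax6 or Notch1. The same held for 1 of 5 neuronal genes, 0 of 3 genes of pluripotent cells and 0 of 4 genes of muscle and blood. Of all protein-coding genes, 40.9% had such a site. These lists are short, and the counts do not check which antibody was used.

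Replication-dependent histone genes are short and without introns, lie in clusters, often as H2A and H2B genes that start back to back, and are transcribed in S phase in a nuclear body organised by Npat. Their mRNAs carry no poly(A) tail and end in a conserved stem-loop bound by Slbp. Med1 is a subunit of the Mediator complex, which connects transcription factors with RNA polymerase II, Carm1 is a methyltransferase of arginines in histone H3 and other proteins, and Jmjd1c is a protein of the family of JmjC histone demethylases.

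The sequences that define the group were read from the mm9 genome. A hairpin of 6 paired bases starting with GG around a loop of 4 bases starting with TT was found on the sense strand between the start of the gene and 200 bases past its end in 64 of 70 histone genes. The 6 without one were Hist1h2aj, Hist1h2an, Hist1h2al, Hist1h3g, Hist1h4a and Hist2h2be. In the window from 200 bases before to 200 bases after the annotated end, 68.6% of histone genes had the hairpin, against 0.0628% of 22300 other protein-coding genes. The 3 most frequent forms are shown, with the paired bases in capitals, and were found in 41, 9 and 8 genes.
Stem-loop of 41 genes on chromosomes 3, 11 and 13: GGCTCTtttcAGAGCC
Stem-loop of 9 genes on chromosomes 3 and 13: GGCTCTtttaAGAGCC
Stem-loop of 8 genes on chromosomes 6 and 13: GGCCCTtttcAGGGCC

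Promoter sequences differed by class. In the 250 bases before the TSS, on either strand, GGTCCG, the core of the H4 element bound by Hinfp, was present at 11 of 13 H4 genes and at 18.6% of all histone genes, against 7.76% of other protein-coding genes. The octamer ATTTGCAT, bound by Pou2f1, was present at 9 of 19 H2B and 7 of 20 H2A genes and at no H1, H3 or H4 gene, against 1.56% of other protein-coding genes. H2A and H2B genes that start back to back share these bases. The CCAAT box (CCAAT) was present at all 6 H1 and all 19 H2B genes, at 19 of 20 H2A and 10 of 12 H3 genes, but at 4 of 13 H4 genes, against 34.8% of other protein-coding genes. TATAAA was found at 47.1% of histone genes against 12.2%, and the E-box CAGNTG at 35.7% against 42.2%. No motif searched contains another, and a match describes sequence, not binding. The next lines give the 150 bases before the TSS of 4 H4 genes, of which Hist1h4j, Hist1h4c and Hist1h4a had sites of all 3 factors and Hist1h4h had a Med1 site only. Capitals mark the octamer, the CCAAT box, the TATA sequence and the core of the H4 element, on either strand.
Hist1h4j (chr13:21826753-21826902, plus strand): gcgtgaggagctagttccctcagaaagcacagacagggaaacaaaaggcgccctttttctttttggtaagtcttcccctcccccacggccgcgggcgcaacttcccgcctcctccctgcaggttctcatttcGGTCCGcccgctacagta
Hist1h4c (chr13:23790324-23790473, minus strand): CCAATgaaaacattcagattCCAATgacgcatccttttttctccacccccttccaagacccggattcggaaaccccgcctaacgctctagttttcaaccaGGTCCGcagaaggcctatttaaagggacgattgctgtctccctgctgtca
Hist1h4a (chr13:23853100-23853249, minus strand): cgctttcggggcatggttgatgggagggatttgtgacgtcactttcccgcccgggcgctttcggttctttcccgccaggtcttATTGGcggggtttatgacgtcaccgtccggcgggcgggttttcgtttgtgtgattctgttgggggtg
Hist1h4h (chr13:23622769-23622918, plus strand): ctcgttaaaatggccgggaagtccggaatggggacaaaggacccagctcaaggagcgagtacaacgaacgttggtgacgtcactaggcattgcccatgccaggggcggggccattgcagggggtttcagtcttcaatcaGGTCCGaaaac
GGTCCG stands close to the TSS in Hist1h4j and Hist1h4h alike, and is missing from Hist1h4a in this window.

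The bases between the TSSs of 4 pairs of H2A and H2B genes are shown with the same marks, all on the plus strand. The first 3 pairs had sites of all 3 factors at both genes, and the fourth had a Med1 site only.
Hist1h2ac and Hist1h2bc (chr13:23775818-23776067, plus strand): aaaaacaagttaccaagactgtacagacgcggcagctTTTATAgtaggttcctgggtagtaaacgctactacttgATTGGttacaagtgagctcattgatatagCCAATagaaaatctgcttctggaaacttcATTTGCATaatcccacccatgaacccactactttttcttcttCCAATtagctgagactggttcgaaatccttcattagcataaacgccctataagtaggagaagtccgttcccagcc
Hist1h2bq and Hist1h2ao (chr13:21902069-21902235, plus strand): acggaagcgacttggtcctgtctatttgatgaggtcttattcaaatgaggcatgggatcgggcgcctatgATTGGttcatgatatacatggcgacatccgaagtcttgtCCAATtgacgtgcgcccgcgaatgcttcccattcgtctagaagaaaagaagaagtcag
Hist1h2ah and Hist1h2bk (chr13:22127513-22127689, plus strand): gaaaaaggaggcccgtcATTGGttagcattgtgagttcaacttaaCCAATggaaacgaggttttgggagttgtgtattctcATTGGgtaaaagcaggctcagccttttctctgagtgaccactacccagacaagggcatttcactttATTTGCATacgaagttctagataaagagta
Hist1h2ag and Hist1h2bj (chr13:22134819-22135082, plus strand): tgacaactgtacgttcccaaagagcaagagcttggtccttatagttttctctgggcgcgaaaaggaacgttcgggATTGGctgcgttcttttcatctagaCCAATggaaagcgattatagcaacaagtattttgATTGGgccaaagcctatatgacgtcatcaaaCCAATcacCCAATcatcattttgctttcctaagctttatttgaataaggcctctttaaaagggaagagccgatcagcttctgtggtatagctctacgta
CCAAT stands on both strands in each of these pairs, and the octamer in the first and the third.

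Med1 sites lay within 1 kb of the TSS of all 70 histone genes (100%, interval 94.8 to 100%), whereas 40.9% of all 22367 protein-coding genes had one. The sites were broad and shared. The 70 genes fell on 27 distinct Med1 sites, 20 of which served more than 1 gene and some as many as 5, and the sites were 657 to 17596 bp wide with a median of 6270 bp. Med1 sites at the TSS of other protein-coding genes had a median width of 1795 bp (quartiles 1443 and 2301 bp), and 99.4% of them were narrower than 6270 bp. The contrast in shares held where a site had to cover the TSS, and shrank where only the centre of a site was counted. A Med1 site covered the TSS of 69 of 70 histone genes (98.6%), against 8691 of 22300 other protein-coding genes. When each Med1 site was cut to its central 300 bp, 34 of 70 histone genes (48.6%, interval 37.2 to 60.0%) kept a site within 1 kb, against 39.0% of protein-coding genes. The midpoint of a site was within 1 kb of the TSS at 30 of 70 histone genes (42.9%, interval 31.9 to 54.5%), against 38.3% of protein-coding genes, a share inside that interval. A site has a single centre, so a wide site shared by several genes keeps few of them under either setting. These shares therefore do not show how much Med1 lies at each TSS. The widest site, of 17596 bp, ran over Hist1h1c, Hist1h3c, Hist1h2bb, Hist1h2ab and Hist1h3b. The narrowest, of 657 bp, covered Hist1h2ba and ended before the TSS of Hist1h2aa, which starts back to back with it, and both genes encode histones of the testis.

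Sites at histone genes stood early in the Med1 list. Of the 27 sites, 16 were among the first 31 and 20 among the first 100, and the last stood in place 1139 of 19956, against a median place of 6982 for Med1 sites at other protein-coding TSSs. The order of the list is not explained by the authors, and its first 31 sites run in order of chromosome and position, so no order was read among them. Those 31 sites held 49 of 70 histone genes (70.0%, interval 58.5 to 79.5%), against 0.237% of protein-coding genes, and among the first 5000 sites the shares were 100% and 15.7%. Of the 15 sites among them without a histone gene, 11 overlapped a gene annotated as a U RNA, another class of short and repeated genes. Genes with a site in this first run included Hist1h1b, Hist1h1e and Hist1h1a of the linker histones, Hist1h2ai and Hist1h2bl as well as Hist1h2aj and Hist1h2bm (1 site of 9127 bp), Hist1h2ak, Hist1h2bn and Hist1h4k (7778 bp), Hist1h3h, Hist1h3i and Hist1h3g of H3, and Hist1h4m and Hist1h4n of H4. By class, 16 of 20 H2A, 14 of 19 H2B, 8 of 12 H3, 8 of 13 H4 and 3 of 6 H1 genes had a site in the first run. Hist4h4 (place 107, 3010 bp), Hist3h2a (place 180, 4060 bp) and Hist3h2ba (place 1139, 2598 bp) did not.

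Med1 sites covered part of each cluster. Along chromosome 13 of mm9, 24 Hist1 genes formed a first block from 21807632 to 22135545, 31 a second from 23622919 to 24026720, and Hist1h2al lay apart at 51298057 to 51298434. Sites of Med1 covered 25.6% of the first block and 23.6% of the second, and 47.2% of the Hist2 block, at 96023839 to 96082924 of chromosome 3. Of 11 other protein-coding genes inside the blocks, 3 had a Med1 site (27.3%), beside 40.9% of all protein-coding genes. They were Zfp184, Gm17658, whose TSS is 136 bp from that of a histone gene, and Trim17, which shares its TSS position with one. The other 8, among them the iron regulator Hfe and the solute carriers Slc17a1, Slc17a2, Slc17a3 and Slc17a4, had no site of any factor within 1 kb.

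**Figure D1:**
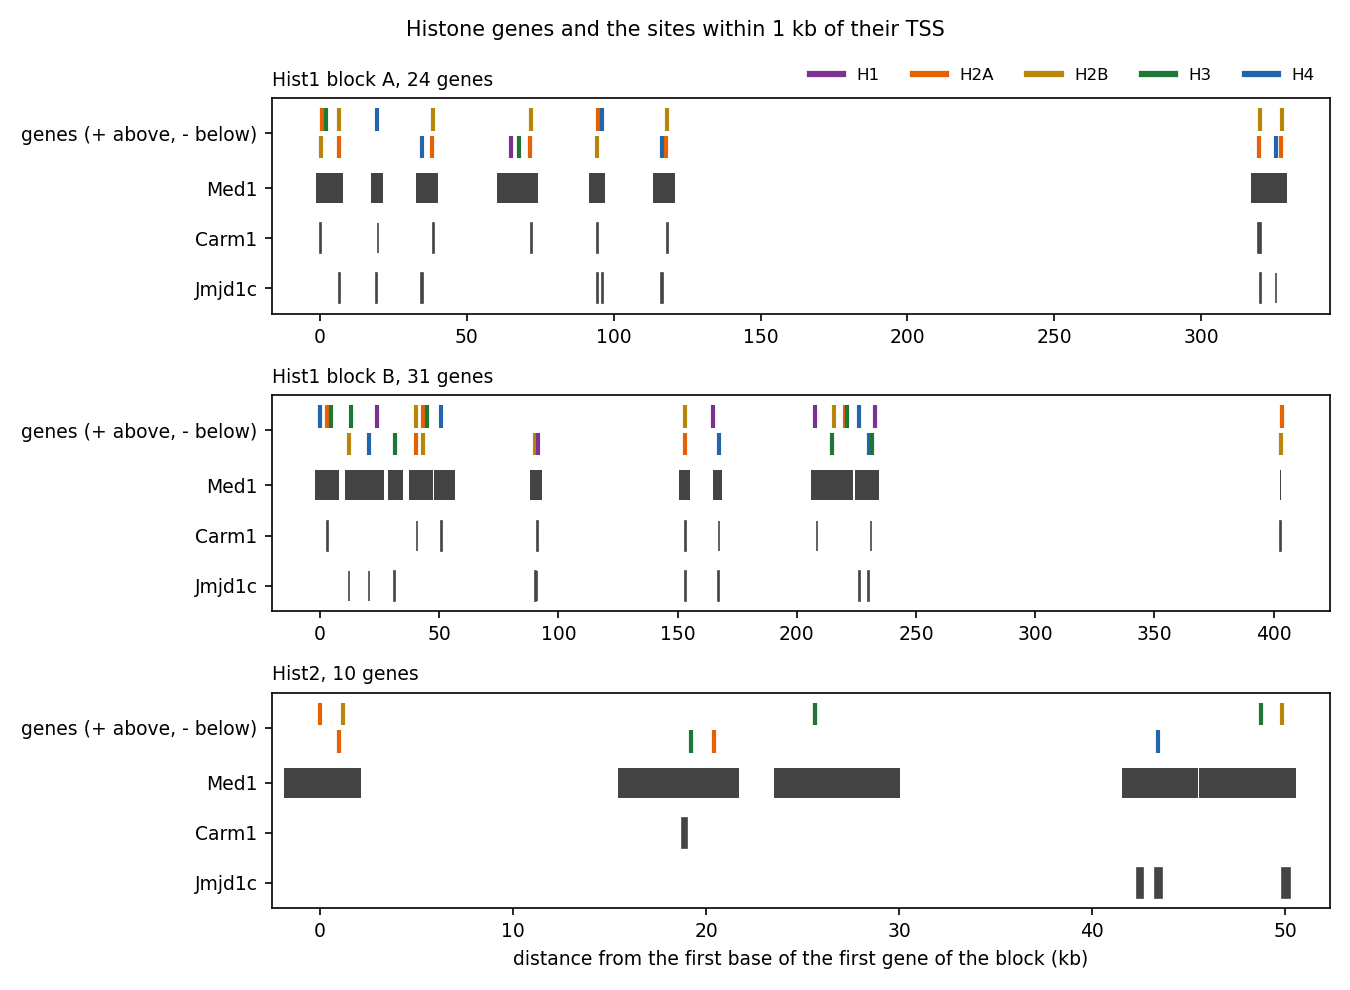
Positions of histone genes and sites in the 2 Hist1 blocks of chromosome 13 (A the first, B the second) and in the Hist2 block, in kb from the first base of the first gene (x axis). Upright marks are TSSs coloured by class, on the plus strand above and on the minus strand below, and dark bars are the Med1, Carm1 and Jmjd1c sites within 1 kb of a TSS, with the narrowest drawn at the width of a line. The Med1 sites drawn appear as bars over groups of genes, and Carm1 and Jmjd1c sites as lines under some of the genes. Sites farther from a histone TSS are not drawn, so a gap between bars can hold further sites. The first Hist1 block, for example, holds 25 Med1 sites, not all of them drawn.

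Carm1 and Jmjd1c sites were present at fewer histone genes. A Carm1 site lay within 1 kb of 28 of 70 (40.0%, interval 29.3 to 51.7%), against 9.29% of protein-coding genes, and a Jmjd1c site of 27 of 70 (38.6%, interval 28.0 to 50.3%), against 8.09%. Both factors and Med1 were present at 11 of 70 (15.7%), against 2.26%, while 17 had Carm1 without Jmjd1c, 16 Jmjd1c without Carm1, and 26 neither. Other protein-coding genes with a Med1 site had Carm1 in 19.4% and Jmjd1c in 16.9% of cases. The 28 genes shared 19 distinct Carm1 sites, whose widths had a median of 253 bp, and the 27 genes shared 22 Jmjd1c sites of 319 bp, where the medians at other TSSs were 266 and 285 bp.

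The Carm1 and Jmjd1c sites at histone genes lay in repeated sequence, which bears on all shares of these factors given here. Reads were placed by their best alignment with a seed of 36 bases. Of the 36-base windows in a site, the median share that occurred a single time in the genome was 17.2% for the 19 Carm1 sites and 47.6% for the 22 Jmjd1c sites, and 88.0% for the 27 Med1 sites. For sites at other protein-coding TSSs this median was 100% for each factor. Med1 sites at histone genes were far wider (median 6270 bp) than Carm1 and Jmjd1c sites (253 and 319 bp). Their share of unique windows therefore covers more sequence around the genes and cannot be set directly against those of the other factors. Within 1 kb of a histone TSS, the median share of unique windows was 75.5%. Less than 80% of the windows were unique in 15 of 19 Carm1 and 15 of 22 Jmjd1c sites, against 3.54% and 2.99% of such sites at other TSSs. When only sites with at least 80% of windows unique were counted, a setting chosen after seeing the data, 4 of 70 histone genes (5.71%) had a Carm1 site and 7 of 70 (10.0%) a Jmjd1c site, against 8.88% and 7.80% of protein-coding genes, and 1 gene, Hist4h4, kept all 3 factors. The same setting left Med1 at 56 of 70 histone genes (80.0%), against 40.0%. All genes stayed in these counts, although 39 of 70 histone genes (55.7%) had less than 80% unique windows within 1 kb of the TSS. Among other protein-coding genes this was 11.4%, so a lower share of histone genes under this setting is in part built in. Seen by gene rather than by site, 31 histone genes had at least 80% unique windows within 1 kb of the TSS, and of these 10 had Carm1 (32.3%, interval 18.6 to 49.9%) and 12 Jmjd1c (38.7%, interval 23.7 to 56.2%), against 10.1% and 8.80% of other protein-coding genes of that kind. The sites at these genes could themselves lie in repeated sequence. Their unique windows ranged from 17.9% (Hist1h2af) to 100% (Hist4h4) for Carm1, and from 10.7% (Hist1h4b) to 100% (Hist4h4) for Jmjd1c. The part of read placement in these sites was not tested.

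**Figure D2:**
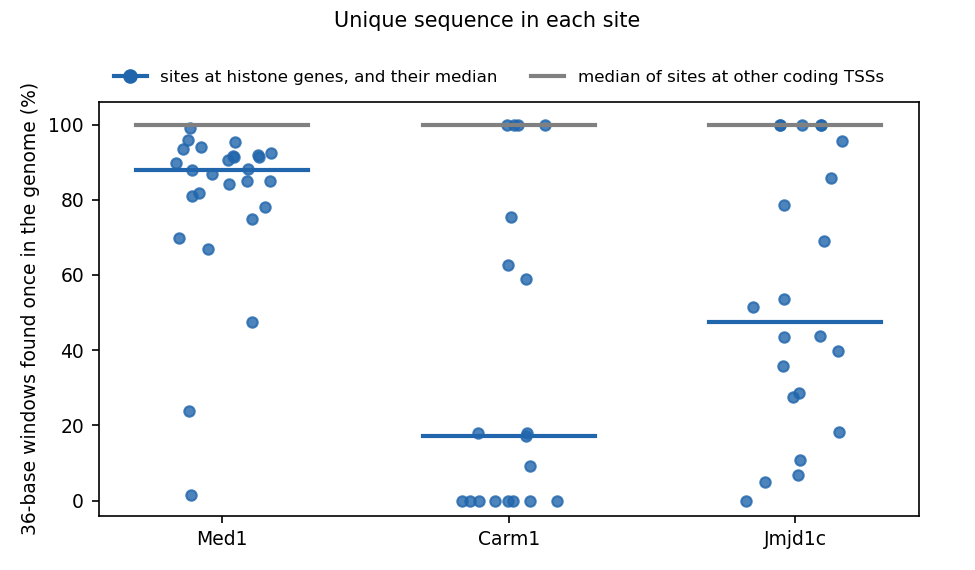
Share of 36-base windows of each site that occur a single time in the mm9 genome (y axis, percent), by factor (x axis). Points are distinct sites within 1 kb of a histone TSS (27 Med1, 19 Carm1, 22 Jmjd1c), blue lines their medians of 88.0, 17.2 and 47.6%, and grey lines the medians of 100% for sites at other protein-coding TSSs; the sideways spread of points has no meaning.

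A pair of duplicated segments gives an example. The 167 bases between Hist1h2bq and Hist1h2ao, printed above, are identical in all 167 bases to those between Hist1h2br and Hist1h2ap, and no 36-base window within 1 kb of these 4 TSSs was unique. Nevertheless, Hist1h2bq and Hist1h2ao had a Jmjd1c site and Hist1h2br and Hist1h2ap had none, and the Carm1 sites of the pairs were 383 and 236 bp wide. The neighbouring H4 genes Hist1h4m and Hist1h4n, identical over the 250 bases before the TSS and with 4.83 and 5.09% of windows unique, both had a Jmjd1c site and no Carm1 site. Presence or absence at one copy of such a pair therefore cannot be told apart from presence or absence at the other.

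By class, the share of genes with a Jmjd1c site was highest in H4, but close to those of H2B and H1 when sites in repeated sequence were left out. A Jmjd1c site was present at 11 of 13 H4 genes (84.6%, interval 57.8 to 95.7%), at 8 of 19 H2B (42.1%, 23.1 to 63.7%), 5 of 20 H2A (25.0%, 11.2 to 46.9%), 2 of 12 H3 (16.7%, 4.70 to 44.8%) and 1 of 6 H1 genes (16.7%, 3.01 to 56.4%). The interval of H4 lay above those of H2A, H3 and H1 and overlapped that of H2B, and all these shares stand against 8.09% of protein-coding genes. Genes that share a site or sequence are not independent, which these intervals do not allow for. The H4 share was 9 of 11 within Hist1 and 2 of 2 outside it (Hist2h4 and Hist4h4), and the exceptions were Hist1h4h and Hist1h4d. Among genes with at least 80% unique windows within 1 kb, 8 of 10 H4 genes had a Jmjd1c site, against 2 of 6 H2B, 1 of 6 H2A, 0 of 3 H3 and 1 of 6 H1 genes. The sites themselves were less unique. With only sites of at least 80% unique windows, Jmjd1c was left at 2 of 13 H4 genes (15.4%, Hist2h4 and Hist4h4), 3 of 19 H2B (15.8%), 1 of 20 H2A, 0 of 12 H3 and 1 of 6 H1 genes (16.7%). The shares of H4, H2B and H1 were then nearly equal, and each rested on at most 3 genes. The 3 H2B genes were Hist2h2bb, the pseudogene Hist3h2bb-ps and Hist1h2be, whose TSS used here lies far from its stem-loop. Sites at H4 genes were also close to the TSS: all 11 nearest midpoints were between -91 and 287 bp of it (negative is upstream in the direction of transcription), with a median of 66 bp, and 8 of 11 (72.7%) covered the TSS, against 39.9% at other protein-coding genes with Jmjd1c. GGTCCG was present before the TSS of 9 of the 11 H4 genes with Jmjd1c and of both without.

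The shares of Carm1 did not separate the classes. Within Hist1, 10 of 15 H2A and 9 of 15 H2B genes had a Carm1 site, against 4 of 11 H4, 2 of 6 H1 and 1 of 9 H3 genes. Over all clusters the shares were 50.0% for H2A (interval 29.9 to 70.1%), 47.4% for H2B (27.3 to 68.3%), 38.5% for H4 (17.7 to 64.5%), 33.3% for H1 (9.68 to 70.0%) and 16.7% for H3 (4.70 to 44.8%). These intervals overlap each other, and for H1 and H3 they either hold or nearly reach the 9.29% of all protein-coding genes. Assigning each site to its nearest histone TSS alone put Carm1 at 10.0% of H2A genes. With only sites of at least 80% unique windows, Carm1 was left at 3 of 13 H4 genes (Hist1h4j, Hist1h4d and Hist4h4), at Hist1h1c, and at no H2A, H2B or H3 gene.

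**Figure D3:**
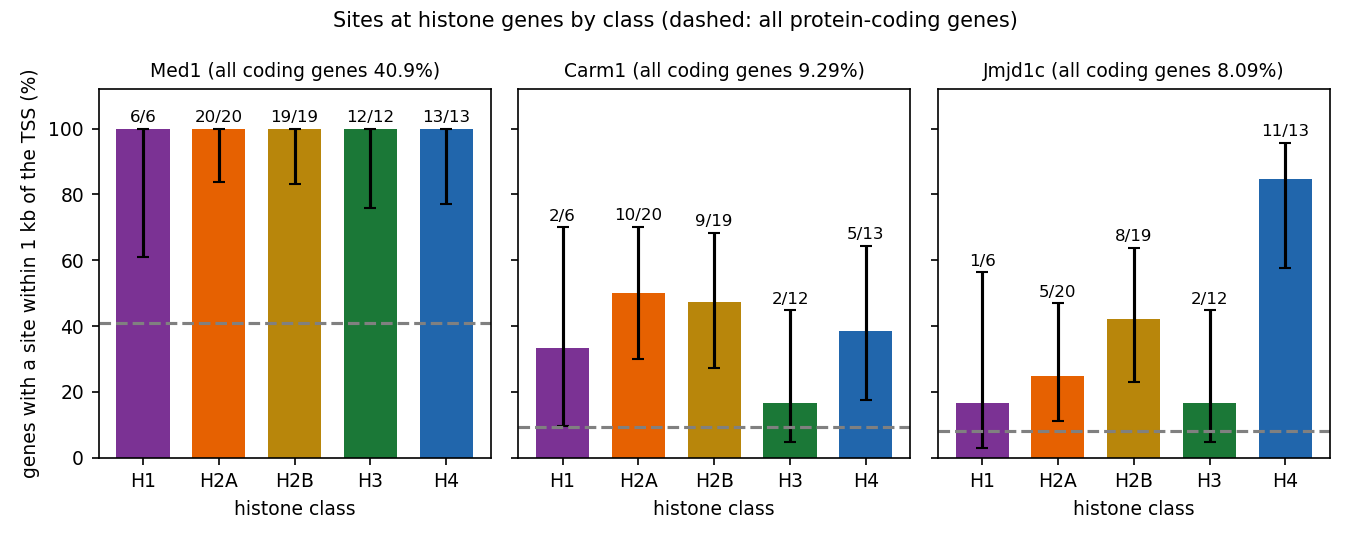
Share of histone genes of each class with a Med1, Carm1 or Jmjd1c site within 1 kb of the TSS (y axis, percent), with 95% Wilson intervals as error bars and the counts above them. Dashed lines mark the share of all protein-coding genes (40.9, 9.29 and 8.09%). Med1 is at 100% in each class, and Jmjd1c is highest in H4 with 11 of 13 genes, which fell to 2 of 13 with only sites of at least 80% unique windows.

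In 13 pairs an H2A and an H2B gene started back to back, with their TSSs 168 to 306 bp apart (median 216 bp). Both genes of each pair had Med1, from the same site. Carm1 was present at both genes of 9 pairs and Jmjd1c at both genes of 4 pairs, neither factor at 1 gene alone, and 3 pairs had neither: Hist1h2ag with Hist1h2bj, Hist1h2ad with Hist1h2bf, and Hist2h2ac with Hist2h2be. Given a spacing below 1 kb, a site near one TSS is nearly always near the other, so this pairing is a product of the distance used. The place of the Carm1 site within the pair is not, but most of these sites had no unique windows, so their places cannot be counted as independent. Of 10 Carm1 sites in these pairs, 9 had their midpoint downstream of the H2B TSS, by 108 to 298 bp, which is -541 to -276 bp from the H2A TSS. The exception was the second of 2 sites at Hist1h2ah and Hist1h2bk, 240 bp downstream of the H2A TSS. The pair of testis genes Hist1h2ba and Hist1h2aa was among the 9, with the midpoint 192 bp downstream of the H2B TSS. The 4 Jmjd1c sites at such pairs were 68, 96 and 310 bp downstream of the H2B TSS at Hist1h2bq, Hist1h2bk and Hist1h2bc, and 188 bp downstream of the H2A TSS at Hist3h2a.

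**Figure D4:**
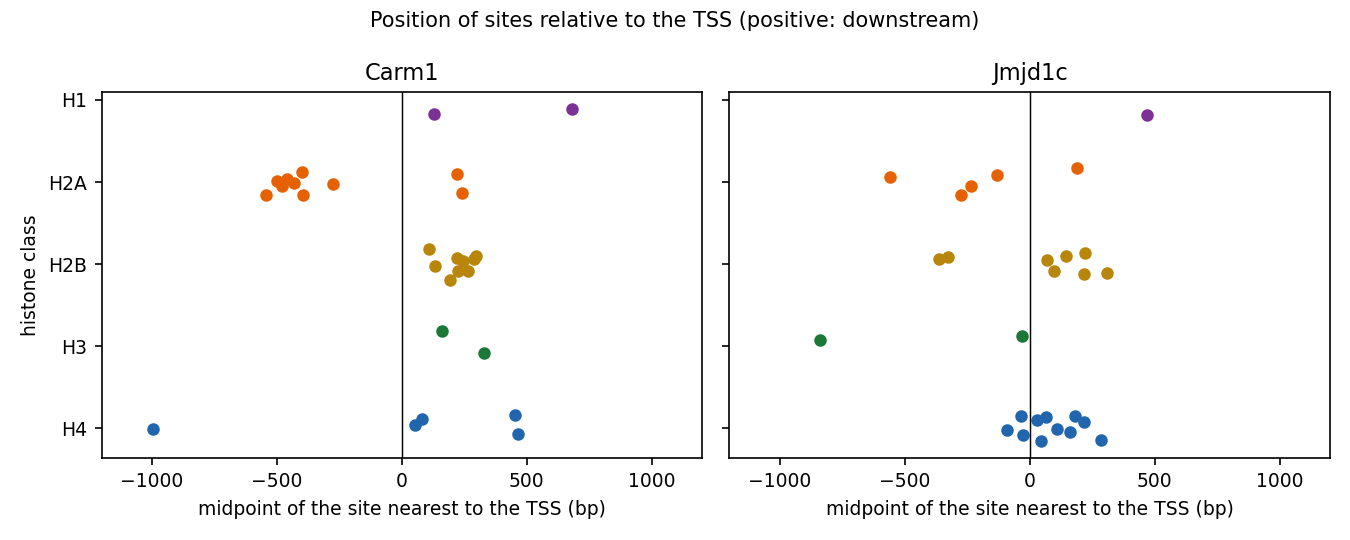
Midpoint of the Carm1 (left) or Jmjd1c (right) site nearest to the TSS of each histone gene that has one (x axis, bp, positive downstream), by class (y axis, with a spread within each class that has no meaning). The 9 H2B genes with Carm1 lie between 108 and 298 bp downstream of the TSS, 8 of the 10 H2A genes lie upstream of it, and the 11 H4 genes with Jmjd1c lie between -91 and 287 bp.

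These positions placed the sites on the coding sequence. At least 50% of the bases of 15 of 19 Carm1 sites (78.9%) were in the coding sequence of a histone gene, against 3.87% of 1809 Carm1 sites at other protein-coding TSSs, and for Jmjd1c the counts were 16 of 22 (72.7%) against 5.67% of 1606 sites. Of the Carm1 sites, 9 lay mainly on an H2B coding sequence, from 71.0% of the site at Hist1h2bq to 100% at Hist1h2bl, Hist1h2bp, Hist1h2br, Hist1h2bk, Hist1h2bg and Hist1h2ba. Histone genes reach their coding sequence within a short distance of the TSS and have no introns, and their coding sequences are much alike within a class. Of these 9 sites, 7 had 0% unique windows, the site at Hist1h2bc had 17.2% and that at the testis gene Hist1h2ba 62.7%.

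The 11 genes with sites of all 3 factors belonged to every class but H3. They were the H4 genes Hist1h4j, Hist1h4c, Hist1h4a and Hist4h4, the H2A genes Hist1h2ao, Hist1h2ah and Hist1h2ac, the H2B genes Hist1h2bq, Hist1h2bk and Hist1h2bc that face them, and the linker histone gene Hist1h1e. At Hist4h4 the Med1 site was 3010 bp wide, and the midpoints of the Carm1 and Jmjd1c sites were at 81 and -34 bp from the TSS. Both of these sites consisted of unique sequence only (100% of windows), which was the case at no other gene of the 11. At Hist1h4j, Carm1 lay 464 bp downstream, beyond most of the coding sequence and with 100% unique windows, and Jmjd1c at -91 bp with 69.1%. Hist1h4c had Carm1 at 51 bp and Jmjd1c at 108 bp downstream, with 75.5 and 51.4% unique windows. At Hist1h4a the Carm1 site was at -996 bp, on the coding sequence of Hist1h3a, and the Jmjd1c site at 219 bp, with 17.9 and 18.3%. Hist1h1e had 1 Carm1 site 129 bp downstream with 58.9% and 2 Jmjd1c sites with 100% unique windows, the nearer at 468 bp. The long gene model of Hist1h2be, which starts next to Hist1h1e, was counted with the same 2 Jmjd1c sites. In this model of 37383 bp the stem-loop ends at -1789 bp from the annotated end. The sites and promoter motifs counted for Hist1h2be are therefore those of a start far from its stem-loop.

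Genes with Med1 only were spread over all classes. Of the linker histones, Hist1h1b, Hist1h1d, Hist1h1a and the testis gene Hist1h1t had neither Carm1 nor Jmjd1c, and Hist1h1t shared its Med1 site (place 208, 3933 bp) with Hist1h4c, which had both. Among H2B genes these were Hist1h2bj, Hist1h2bf, Hist1h2bb, Hist2h2be and Hist3h2ba, among H4 genes Hist1h4h alone, and among H2A and H3 genes 8 each.

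Outside Hist1, the 14 genes of the other clusters all had Med1, and 6 of them had a further factor. In Hist2, Hist2h4 had Jmjd1c at -28 bp and Hist2h2bb at 221 bp from the TSS, both in mainly unique sequence (100 and 95.6%), and the pseudogene Hist2h3c2 was the only Hist2 gene with a Carm1 site within 1 kb of the TSS, in wholly repeated sequence. A second Carm1 site of the block lay inside the Med1 site of Hist2h2aa1 and Hist2h3c1, farther from the TSSs used for these genes. Hist2h2ab, Hist2h2ac, Hist2h2be, Hist2h2aa1, Hist2h2aa2, Hist2h3b and Hist2h3c1 had Med1 alone by this distance. Carm1 was thus at 1 of 10 Hist2 genes (10.0%, interval 1.79 to 40.4%) and at 26 of 56 Hist1 genes (46.4%, interval 34.0 to 59.3%), and these intervals overlap. Within 2 kb of the TSS, or within 1 kb of any base of the gene, Carm1 was at 4 of 10 Hist2 genes (40.0%). When the TSS of any transcript was allowed, it was at 2 of 10 (20.0%). In Hist3, Hist3h2a and the pseudogene Hist3h2bb-ps shared a Jmjd1c site of 85.9% unique windows, and Hist3h2ba had Med1 only. The single gene Hist1h2al had a Med1 site of 1157 bp and no other.

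No super enhancer of the authors' table lay near a histone gene, taken as the distance over which the authors joined enhancers, against 1.83% of protein-coding genes with one, and the interval for 0 of 70 reaches 5.20%. No histone TSS lay inside an enhancer region, against 0.456% of protein-coding genes. According to the paper's methods, only enhancers clear of a window around each TSS were joined into regions. The lack of a TSS inside a region is therefore largely built in. The same step can leave less sequence for regions where TSSs are dense, as in the histone clusters. Its part in the absence of super enhancers was not tested, so no conclusion is drawn from that absence. At the distance used for super enhancers, 4 typical enhancer regions lay near 9 of 70 histone genes (12.9%, interval 6.91 to 22.7%). Of protein-coding genes, 19.5% lay near any region. Per kb of region, the Med1 and IgG signals were 1331 and 240 near Hist1h2bj, 2066 and 109 near Hist2h2bb, 867 and 376 near Hist1h4h, and 1374 and 166 near Hist1h2ah. All 4 Med1 values were above the median of typical regions, 359 per kb, and 3 of the 4 IgG values were above the median of 132.

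Genes that act on histones gave a comparison with sites of usual width. Of 16 genes of histone transcription and 3′ processing, 14 had a Med1 site, of 1227 to 3313 bp, against 40.9% of protein-coding genes. They included Npat, the organiser of histone gene transcription (place 1470), Casp8ap2, Hinfp, Pou2f1, Lsm10 and Lsm11 of the U7 particle, Cpsf2, Cpsf3, Cstf2, the exonuclease gene Eri1 and the cell cycle genes Cdk2, Ccne1 and Ccne2. Zfp473 and Sympk had none. Slbp, the stem-loop binding protein, was the only gene of these 16 with all 3 factors, with Carm1 336 bp and Jmjd1c 456 bp downstream of the TSS. Of 7 histone chaperone genes, 5 had Med1 (Asf1a, Chaf1b, Nasp, Hira and Daxx), against 40.9% of protein-coding genes, and Chaf1b had all 3 factors. Asf1b and Chaf1a had no Med1 site.

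Replacement variants, which can be made outside S phase and mostly from polyadenylated mRNAs, had Med1 at 10 of 11 genes, against 40.9% of protein-coding genes. Their Med1 sites were 1815 to 4408 bp wide. H2afx, whose mRNA can also end in a stem-loop, had the earliest place in the list (81, 4408 bp) and a Jmjd1c site 219 bp downstream of the TSS. H2afv had all 3 factors and H2afy had Carm1. H2afz, H2afy2, H2afj, H3f3a, H1fx, Cenpa and H1f0 (annotated as a pseudogene in GENCODE vM1) had Med1 only, and H3f3b had no site. Carm1 and Jmjd1c were each present at 2 of 11 variants (18.2%, interval 5.14 to 47.7%), against 9.29% and 8.09% of protein-coding genes. That interval overlaps those of the replication-dependent genes for both factors.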

How the data were processed

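Site lists of Med1, Carm1 and Jmjd1c ChIP-seq in NS-5 cells were analysed, and an enhancer table with Med1 and IgG. According to the paper's methods and the submitters' notes, the authors used Bowtie 0.12.7 to place reads on mm9 (best alignment, seed of 36 bases), removed duplicates (Picard 1.81) and called sites with MACS 1.4.2 against IgG. The deposited site lists hold positions only, and their p-value thresholds are not settled here. The deposited enhancer table holds Med1 and IgG signal, which the authors scaled to mapped reads and summed over each region. The number of reads behind them is unknown here.

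Genes, classes and 5′ ends came from GENCODE vM1 (the mm9 build, NCBIM37). A gene had a site when any base of it lay within 1 kb of the 5′ end, with 22367 protein-coding genes as background. Several annotated 5′ ends are those of long models or of the coding start. Positions are counted from 1. Motifs, hairpins and 36-base windows were searched in the mm9 genome, windows on both strands (every base in Carm1 and Jmjd1c sites and around histone TSSs, every 20 bases in their Med1 sites, and every 10 or 100 bases elsewhere). Shares have 95% Wilson intervals, and genes that share a site are not independent. No test was run, as there is 1 sample per antibody. Functions for distances, windows and intervals were tested on simulated data. Members and lists were chosen with earlier results of these data known. Named are genes with sites of all 3 factors, the first 3 per class in the Med1 list, genes outside Hist1, testis genes, genes without Carm1 or Jmjd1c where a class has at most 5, and the listed factors; others serve as examples chosen after seeing values. Alternatives covered distance, site definition, annotation, list part, site width, motif window and unique sequence. Python 3.11.15, numpy 2.4.6, pandas 2.3.3 and matplotlib 3.10.9 were used.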

Additional observations from a re-analysis of the deposited data

How the results depend on the processing

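Of 243 values under the alternative settings first listed, 202 stayed within the Wilson interval of the value reported, 40 were lower and 1 was higher. Counting sites within 2 kb put Carm1 at 52.9% of histone genes. Requiring the Med1 midpoint within 1 kb gave 42.9% of histone genes, 0% of H1, 50.0% of H2A, 47.4% of H2B, 41.7% of H3, 46.2% of H4, 37.5% of Hist1 and 50.0% of Hist2 genes. Requiring the site to cover the TSS gave Carm1 at 5.71% and Jmjd1c at 18.6% of histone genes, all 3 factors at 4.29%, Carm1 at 0% of H1, H2A, H3 and Hist2 genes, 10.5% of H2B, 15.4% of H4 and 5.36% of Hist1 genes, and Jmjd1c at 0% of H1, 10.0% of H2A, 10.5% of H2B and 17.9% of Hist1 genes. Assigning each site to its nearest histone TSS alone gave Med1 at 38.6%, Carm1 at 27.1% and all 3 at 5.71%, Med1 at 0% of H1, 25.0% of H2A, 26.3% of H2B, 58.3% of H3, 76.9% of H4, 33.9% of Hist1 and 50.0% of Hist2 genes, Carm1 at 10.0% of H2A and 30.4% of Hist1 genes, and Jmjd1c at 10.0% of H2A genes. Med1 sites cut to 300 bp gave 48.6%, and sites at or above the median width put Carm1 at 15.7% and Jmjd1c at 18.6%. Without pseudogenes Carm1 was at 0% of Hist2 genes. In 150 bases before the TSS the E-box was at 21.4% of histone promoters. The share of H4 genes with Jmjd1c ranged from 61.5 to 84.6% over 8 of these settings.

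With only sites of at least 80% unique windows, a setting added after seeing the data, Med1 was at 80.0% of histone, 70.0% of H2A and 75.0% of H3 genes, Carm1 at 5.71% of histone genes and 0% of H2A, H2B and H3 genes, Jmjd1c at 10.0% of histone, 5.0% of H2A, 15.8% of H2B, 0% of H3 and 15.4% of H4 genes, and all 3 at 1.43%. With 1 sample per antibody, unknown depth and no site heights, only presence of a called site could be compared, and for genes of duplicated sequence the sites cannot be assigned to 1 copy. No paired analysis was possible because each antibody has 1 sample.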
